A study of Mus musculus with 27 samples.

Results

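The extracellular matrix genes and matrix proteases of mouse pancreatic islets were followed while a switchable Myc was turned on and off in beta cells. The members were the genes of the families below and of 13 further names such as Fn1, Dcn and Postn. Their probe sets carried a single platform symbol. The families were collagen chains, laminin chains, matrix metalloproteinases (Mmp), tissue inhibitors of metalloproteinases (Timp), and Adam and Adamts genes, picked by symbol. Of the 13, 2 (Fbn1 and Thbs1) were not among the single-symbol probe sets. This gave 84 genes of 8251 on the array, measured by 115 probe sets, and each gene was read from the probe set that was brightest on average. The choice used no difference between groups.

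The study measured laser-captured islets on 27 arrays, 3 in each of 9 groups. All mice carried 2 transgenes driven by an insulin promoter: MycER, a Myc protein fused to an estrogen receptor domain that is active only with tamoxifen or 4-hydroxytamoxifen bound, and BclXL, a protein that blocks cell death. The control group was untreated. In 4 acute groups the mice were killed 2, 4, 8 or 24 h after an injection of 4-hydroxytamoxifen. In 1 group they received tamoxifen daily for 21 days (the sample titles of this group name 4-hydroxytamoxifen instead). In 3 regression groups they received the same 21 days of tamoxifen and were killed 2, 4 or 6 days after the last dose. No group received the vehicle alone or lacked MycER, so drug and Myc cannot be told apart. Neither age nor strain is stated. The labels do not say that the 3 arrays of a group came from separate mice, so a p-value here reflects only array-to-array spread, which may be technical.

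The extracellular matrix is the protein scaffold around cells. Fibrillar collagens, proteoglycans and matricellular proteins such as periostin are made mainly by fibroblasts and other mesenchymal cells, whereas laminins, type IV collagen and nidogen form the basement membrane. In mouse islets the basement membrane lies along the capillaries and is made largely by endothelial cells. Metalloproteinases and many Adam and Adamts proteins cut matrix and cell surface proteins, and Timps inhibit them. The bulk arrays cannot tell fewer cells of a type from less RNA per cell.

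The upstream sequences of 4 members with large changes are shown, since Postn and Col3a1 rose and Col13a1 and Lamb2 fell in the same islets. Each run is the 250 bases before the RefSeq start of the gene, 5′ to 3′ on its own strand, in GRCm38.p6. The Postn window is chr3:54360857-54361106 on the plus strand, 1 of 2 RefSeq starts. The others are Col3a1 at chr1:45311288-45311537, plus strand, Col13a1 at chr10:61979109-61979358, minus strand, and Lamb2 at chr9:108479612-108479861, plus strand. Capitals mark TATAAA, the TATA box.
Postn: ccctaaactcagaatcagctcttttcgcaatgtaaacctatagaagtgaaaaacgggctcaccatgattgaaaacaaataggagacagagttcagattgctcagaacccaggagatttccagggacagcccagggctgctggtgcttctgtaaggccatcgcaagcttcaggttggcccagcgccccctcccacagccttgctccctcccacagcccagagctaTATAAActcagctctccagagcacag
Col3a1: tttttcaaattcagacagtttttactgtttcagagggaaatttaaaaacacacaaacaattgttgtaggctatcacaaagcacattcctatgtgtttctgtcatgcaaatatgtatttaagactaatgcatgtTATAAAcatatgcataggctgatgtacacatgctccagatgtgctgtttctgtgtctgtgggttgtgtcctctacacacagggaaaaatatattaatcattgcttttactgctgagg
Col13a1: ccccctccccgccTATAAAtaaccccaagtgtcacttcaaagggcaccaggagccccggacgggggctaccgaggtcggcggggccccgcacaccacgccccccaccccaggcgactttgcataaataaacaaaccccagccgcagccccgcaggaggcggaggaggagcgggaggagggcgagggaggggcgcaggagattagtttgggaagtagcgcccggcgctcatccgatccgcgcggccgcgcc
Lamb2: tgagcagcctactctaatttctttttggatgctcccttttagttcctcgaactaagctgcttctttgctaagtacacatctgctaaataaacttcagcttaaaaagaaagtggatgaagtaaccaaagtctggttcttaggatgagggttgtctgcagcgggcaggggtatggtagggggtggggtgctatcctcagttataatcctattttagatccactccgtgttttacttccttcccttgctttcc
TATAAA began 26 bases before the start in Postn, 117 before it in Col3a1 and 237 before it in Col13a1. None of the 4 motifs searched on both strands was found in the Lamb2 window. RefSeq gave 62 such windows for 53 of the 84 members. The Myc and Max E-box CACGTG was in 3 of them (Adam10, Adam19 and Mmp7), 4.84% against 6.02% of all 32851 windows, and none of these 3 genes was called in a comparison. TATAAA was in 21% of member windows against 12.4% of all, CCAAT in 33.9% against 33.8%, and GGGCGG in 43.5% against 32.7%. A match of letters is a description and was not tested as a binding site.

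The values are log2 RMA levels, in which 1 unit is a doubling. A gene was called when limma's adjusted p (Benjamini-Hochberg over 12422 probe sets) was below 0.05. Across the 9 groups, 20 of the 84 members differed by limma's F test, 23.8%, against 41.8% of all 8251 genes. Many members were dim: 47 had a mean below 7.14, the level of the brightest bacterial control probe set. Mouse RNA lacks these sequences, and the labels do not say whether control RNA was added. That was 56% of members against 43.4% of all genes. Above that level 35.1% of members and 53.1% of genes differed, and below it 14.9% of members and 27% of genes. In all, 27 members were called in at least 1 of 12 comparisons and 57 in none. The matching share of all genes was not counted, so 27 cannot be read as many or few. Periostin had the widest range, with group means that spanned 3.22 log2 units (F test adjusted p = 3.08e-05). Next came Col3a1, with a range of 2.08 (F test adjusted p = 0.00194).

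**Figure D1:**
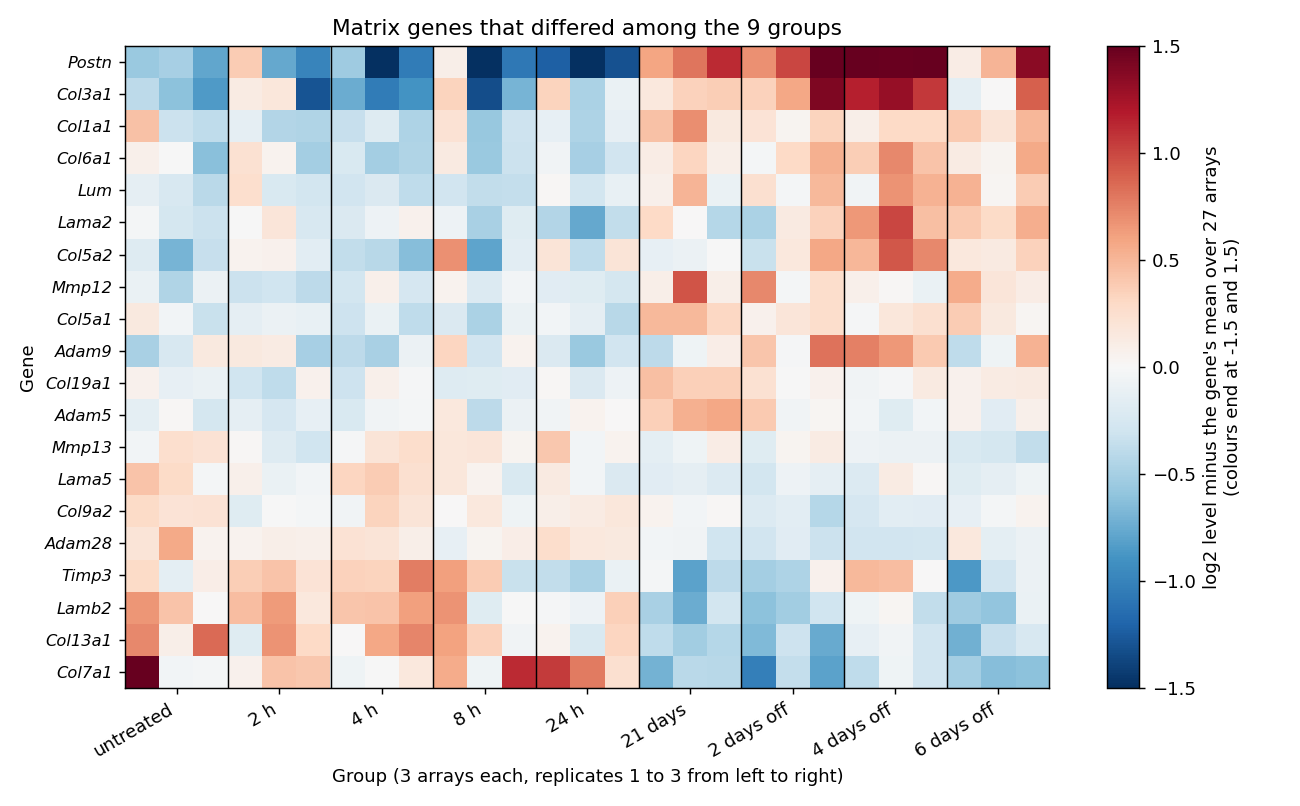
Heat map of the 20 matrix genes called by limma's F test (vertical axis) in each of the 27 arrays (horizontal axis, 3 columns per group). Colour gives the log2 level minus the gene's mean over all arrays, with colours ending at -1.5 and 1.5. Postn, Col3a1 and their neighbours at the top were high from 21 days on, Lamb2, Col13a1 and Col7a1 at the bottom were low there, and Timp3 returned to a high level 4 days off the drug.

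In the first 24 h after 4-hydroxytamoxifen no member was called at any time. At 2 h the count was 0 of 84, against 0.485% of all genes, with 2 members higher and 7 lower at an unadjusted p under 0.05. At 4 h it was 0, against 0.909%, and no member had an unadjusted p under 0.05. At 8 h it was 0, against 1.91%, with 1 higher and 5 lower unadjusted. At 24 h it was 0, against 1.58%, with 2 higher and 5 lower unadjusted. At these shares fewer than 2 of 84 members would be called, so the counts of 0 lie near the background. The median change of the members was -0.05 at 2 h and 0 at 4 h, against -0.06 and -0.02 for all genes. At 8 h it was -0.09, and at 24 h -0.07, against -0.05 and -0.04.

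Some acute differences were sizeable but missed the threshold. At 24 h Postn read 6.16, 5.56 and 6.08, all below its untreated arrays of 6.83, 6.89 and 6.60, a difference of -0.84 ± 0.44 (SE) with an adjusted p of 0.48. Col15a1 was also below all untreated arrays at 24 h (-0.76 ± 0.25, adjusted p = 0.165). In other genes the arrays of a group disagreed. Decorin (Dcn), a small proteoglycan that binds collagen fibrils, read 11.04, 11.23 and 7.78 at 2 h against 8.49, 8.58 and 7.69 in untreated islets. The third 2 h array lay inside the untreated range, and the difference of 1.76 ± 0.87 (SE) had an adjusted p of 0.439. Dcn also read 10.76, 7.01 and 8.66 at 8 h. Its 24 h arrays, 9.62, 9.08 and 8.75, lay above the untreated ones by 0.90 ± 0.87 (adjusted p = 0.75). Its spread within groups was the widest among the genes described, up to an SD of 1.94 at 2 h, and the F test found no difference (adjusted p = 0.674). Adam8, an Adam protease found on leukocytes, read 9.51, 8.06 and 7.68 at 2 h against 7.80, 7.40 and 7.55, a difference of 0.83 ± 0.29 with an adjusted p of 0.242. The first 2 h array, which held the highest Adam8, had a leukocyte marker mean 0.6 above the mean of all arrays, and so did the third, which read 7.68. The part of those markers in the Adam8 value was not tested.

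After 21 days of tamoxifen, 5 members were higher than in untreated islets, against 7.95% of all genes, and 5 were lower, against 8.46%. Each of these is 5.95% of the 84. The higher genes were Postn, the type V collagen chain Col5a1, the type XIX chain Col19a1, the macrophage elastase Mmp12 and the testis-type Adam gene Adam5. The lower genes were Col7a1, Col13a1, Lamb2, Lama5 and Adam28. In all 10 the treated and untreated arrays did not overlap. The calls favour such a gap, and its share over all genes was not counted.

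Postn, a secreted matricellular protein that binds collagen and integrins, read 6.83, 6.89 and 6.60 in untreated islets and 7.97, 8.18 and 8.50 at 21 days. It was 2.72-fold higher, a log2 change of 1.44 ± 0.44 (SE, adjusted p = 0.0323). Leaving out any 1 of the 6 arrays ended this call, with an adjusted p of up to 0.095, while the change stayed at or above 1.28. With the means of acinar and leukocyte markers as covariates the change was 1.28 with an adjusted p of 0.115.

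The step from 24 h to 21 days was wider. Here 10 members were higher, 11.9%, against 11.4% of all genes, and 3 were lower, 3.57%, against 10.4%. The higher genes included 3 of 8 fibrillar collagens (Col1a1, Col5a1, Col11a1) and 3 of 17 basement membrane genes (Col15a1, Col18a1, Lamc1), beside Postn, Mmp12, Adam5 and Col19a1. Col7a1, Lamb2 and Adam28 were lower. With 1 of the 6 arrays left out, the calls of Col11a1 and Lamb2 were kept in 1 of 6 fits. That of Mmp12 was kept in 2, that of Col7a1 in 4 and that of Adam28 in 0. Postn, Col5a1, Col19a1 and Adam5 kept theirs in all 6. Col11a1, at a level near 5, did not differ by the F test (adjusted p = 0.23). Postn read 6.16, 5.56 and 6.08 at 24 h and so was 4.87-fold higher at 21 days (2.28 ± 0.44, adjusted p = 0.00132). Col1a1, the main chain of type I collagen, read 8.54, 8.20 and 8.54 at 24 h and 9.10, 9.36 and 8.80 at 21 days, 1.58-fold higher (adjusted p = 0.0241, lost in 3 of 6 fits that left out an array). Col5a1 rose 1.54-fold over the same step (adjusted p = 0.00224).

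These groups also differed in exocrine RNA. The mean of 16 acinar markers was 11.18 ± 0.28 (SD) at 24 h, 9.01 ± 1.30 in untreated islets and 7.58 ± 0.29 at 21 days. Of the 16, 13 were lower at 21 days than at 24 h, against 10.4% of all genes. The 24 h and 21 day arrays did not overlap in this mean (10.96 to 11.5 against 7.25 to 7.81). A fit with the acinar and leukocyte means as covariates can therefore hardly separate this step from acinar RNA. In that fit none of the 13 members was called over this step, and the matching share of all genes was not counted. The Postn change was then 1.86 with an adjusted p of 0.265, and that of Col7a1 turned from -1.20 to 0.26.

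When tamoxifen was stopped, 4 members were called against their 21 day levels, all at 4 days off. At 2 days off 0 of 84 were called, against 0.17% of all genes, with 1 higher and 12 lower at an unadjusted p under 0.05. The count at 6 days off was 0 too, against 0.339%, with 2 higher and 9 lower unadjusted. Off the drug for 4 days, 2 were higher (Lama2 and Adamts1), 2.38% against 4.52% of all genes, and 2 were lower (Adam5 and Adam7), 2.38% against 2.39%. There 10 were higher and 21 lower at an unadjusted p under 0.05, and the median absolute change was 0.25 for members and 0.21 for all genes. With array weights 26 were called, and the matching share of all genes was not counted. By the F test array weights called 57.1% of members and 67.3% of all genes, against 23.8% and 41.8% without them. Leaving out 1 array changed the main count of 4 to between 0 and 6. Lama2, the laminin α2 chain of muscle and nerve basement membranes, read 7.21, 6.92 and 6.49 at 21 days and 7.57, 7.92 and 7.37 at 4 days off. It was 1.68-fold higher (adjusted p = 0.0356), a call lost without the arrays rich in leukocyte markers (adjusted p = 0.0556), in the fit of the 6 arrays alone and in 4 of 6 fits that left out an array (adjusted p up to 0.118). Adam5 fell from 9.71, 9.89 and 9.94 to 9.31, 9.18 and 9.31, 1.49-fold lower (adjusted p = 0.0168, lost in 3 of 6 fits that left out an array) and back within the untreated range of 9.09 to 9.37. Adamts1 changed 1.24-fold at a level near 3, below all of the bacterial controls, and Adam7 fell 1.25-fold, each lost in 5 of those 6 fits.

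**Figure D2:**
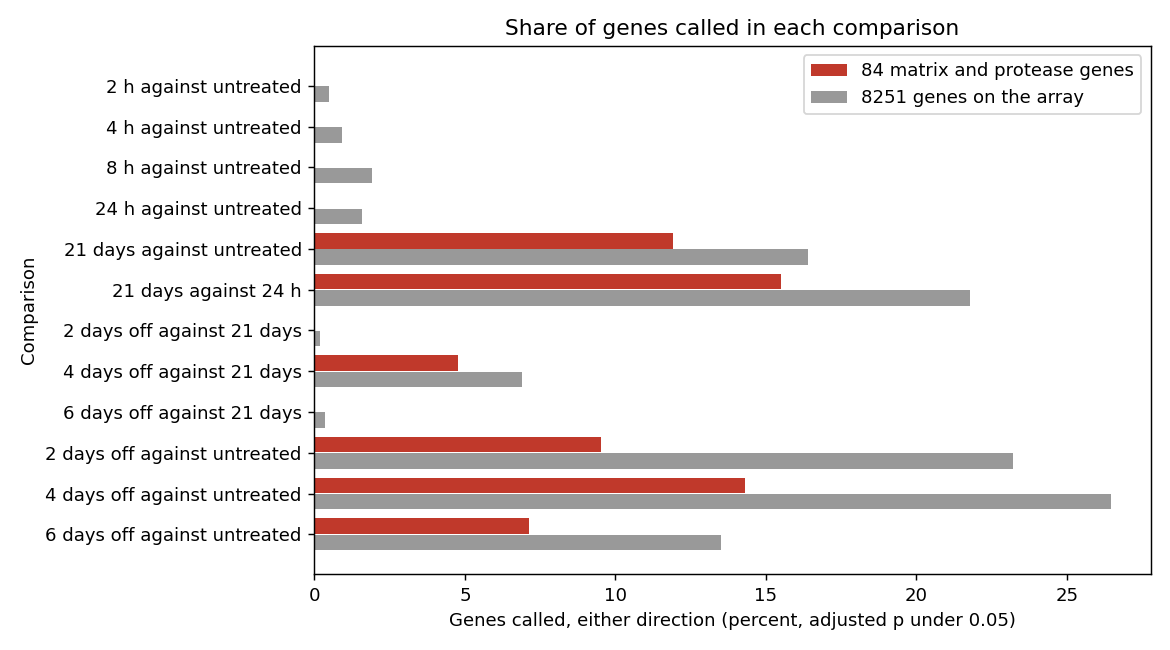
Share of genes called in each of the 12 comparisons (vertical axis), in either direction, as a percent (horizontal axis): red bars for the 84 matrix and protease genes, grey bars for all 8251 genes on the array. The red share lay below the grey one in every comparison, for example 14.3% of members at 4 days off against untreated.

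Set against untreated islets, the regression groups differed more. At 2 days off 2 members were higher (Postn and Col3a1), 2.38% against 11.7% of all genes, and 6 were lower (Col7a1, Col13a1, Lamb2, Adam28, Col9a2 and Lama5), 7.14% against 11.5%. By 4 days off 8 were higher (Postn, Col3a1, Col5a2, Lama2, Adam9, Col6a1, Lum and Adamts1), 9.52% against 14.1%, and 4 were lower (Col13a1, Adam28, Col9a2 and Mmp14), 4.76% against 12.3%. At 6 days off 1 was higher (Lama2), 1.19% against 5.56%, and 5 were lower (Col7a1, Col13a1, Lamb2, Col11a2 and Mmp13), 5.95% against 7.95%. These comparisons share the untreated arrays, so their calls are not independent. In the called members the arrays of the groups did not overlap, apart from Col11a2 at 6 days off. Here too the calls favour such a gap, and its share over all genes was not counted.

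Postn had its highest group mean at 4 days off, but a rise after the last dose was not called. Its difference from 21 days there was 0.94 ± 0.44 (SE, adjusted p = 0.171). The step from 2 to 4 days off was not tested, and the highest single array was at 2 days off. Postn read 8.07, 8.39 and 9.50 at 2 days off, 9.44, 8.86 and 9.16 at 4 days off, and 7.49, 7.89 and 8.74 at 6 days off. Its level at 4 days off was 5.21-fold above untreated (2.38 ± 0.44, adjusted p = 0.000704), and this call was kept in every alternative and with every array left out in turn. With the acinar and leukocyte means as covariates the change was 2.25 (adjusted p = 0.00312). At 2 days off it was 3.68-fold higher (adjusted p = 0.00438). All 9 regression arrays lay above the highest untreated array of 6.89.

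The fibrillar collagens, the rope-like collagens of connective tissue, gave 4 genes of 8 by the F test (Col1a1, Col3a1, Col5a1 and Col5a2), near the 41.8% of all genes. Col3a1, the single chain of type III collagen, read 8.56, 8.33 and 8.10 in untreated islets, 9.11, 9.30 and 9.32 at 21 days, 9.30, 9.53 and 10.35 at 2 days off, and 10.12, 10.26 and 10.01 at 4 days off. No 21 day array overlapped the untreated ones, yet the difference of 0.91 ± 0.38 missed the threshold (adjusted p = 0.115). Single acute arrays were as high, up to 9.12 at 2 h and 9.28 at 8 h and 24 h. Col3a1 at 4 days off was 3.48-fold above untreated (1.80 ± 0.38, adjusted p = 0.00199), kept in every alternative. Its difference from 21 days there was 0.89 ± 0.38 and was not called (adjusted p = 0.139). The call at 2 days off (2.63-fold, adjusted p = 0.0123) was lost without the third array of that group (adjusted p = 0.0853). At 6 days off it read 8.80, 8.95 and 9.84, with an adjusted p of 0.154.

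Col5a2, which joins Col5a1 in type V collagen and lies next to Col3a1 in the genome, read 7.15, 6.64 and 7.0 in untreated islets and 7.84, 8.27 and 8.06 at 4 days off. It was 2.18-fold higher there (adjusted p = 0.00366) in all alternatives, although the first 8 h array also read 8.03. Col5a1 followed another course, highest at 21 days with 9.09, 9.09 and 8.91 against 8.75, 8.56 and 8.27 (1.42-fold, adjusted p = 0.0121), and that call was lost without the third untreated array (adjusted p = 0.0706). The fibrillar list had a median change of 0.31 at 21 days, with 8 of 8 changes above 0, against 0.03 for all genes, while only 1 of the 8 was called.

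Among the other collagens, 5 of 16 differed by the F test, against 41.8% of all genes, and they moved in both directions. Col6a1, a chain of the beaded type VI filaments around cells, read 9.55, 9.47 and 8.84 in untreated islets and 9.84, 10.19 and 9.90 at 4 days off, 1.61-fold higher (adjusted p = 0.0246). The call was lost without the third untreated array or the second 4 days off array. Its partners Col6a2 and Col6a3 did not differ by the F test (adjusted p = 0.361 and 0.295).

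Col13a1, a collagen that spans the cell membrane at sites of adhesion, was lower in all 4 late groups. It read 9.06, 8.42 and 9.19 in untreated islets, 7.96, 7.82 and 7.91 at 21 days, 7.67, 8.03 and 7.58 at 2 days off, 8.21, 8.28 and 8.05 at 4 days off, and 7.62, 7.99 and 8.10 at 6 days off. It was 1.99-fold lower at 21 days (adjusted p = 0.00672) and 2.19-fold lower at 2 days off (adjusted p = 0.00172), both kept in every alternative and with each array left out. All 12 late arrays lay below the lowest untreated one. The 1.64-fold fall at 4 days off was a call lost in 5 of the 6 fits that left out an array.

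Col7a1, the collagen of anchoring fibrils under epithelia, read 10.69, 9.03 and 9.04 in untreated islets and 8.36, 8.67 and 8.65 at 21 days. The first untreated array stood apart from the other two, and it was also the one with the highest acinar marker mean of its group, 10.48. Without it the change at 21 days was -0.47 in place of -1.03, with an adjusted p of 0.245 in place of 0.0391. At 2 days off the call was lost without the same array (adjusted p = 0.0764). At 24 h, where the acinar mean was highest, Col7a1 read 10.12, 9.85 and 9.31. At 4 h the acinar mean was 10.06 ± 0.24, above the untreated 9.01 ± 1.30, and Col7a1 averaged 9.10 ± 0.11, below the untreated 9.59 ± 0.96. The part of acinar RNA in these levels was not tested beyond the fit with covariates.

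Col9a2, a chain of cartilage-type collagen IX, fell 1.41-fold at 2 days off (adjusted p = 0.000924) and 1.34-fold at 4 days off (adjusted p = 0.00285), in every alternative. It read 8.54, 8.45 and 8.46 in untreated islets and 8.00, 8.09 and 8.08 at 4 days off. Col19a1, a minor collagen with a mean of 4.91, rose 1.36-fold at 21 days (5.36, 5.26 and 5.27 against 4.97, 4.79 and 4.81, adjusted p = 0.0102), below the level of the second brightest bacterial control.

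**Figure D3:**
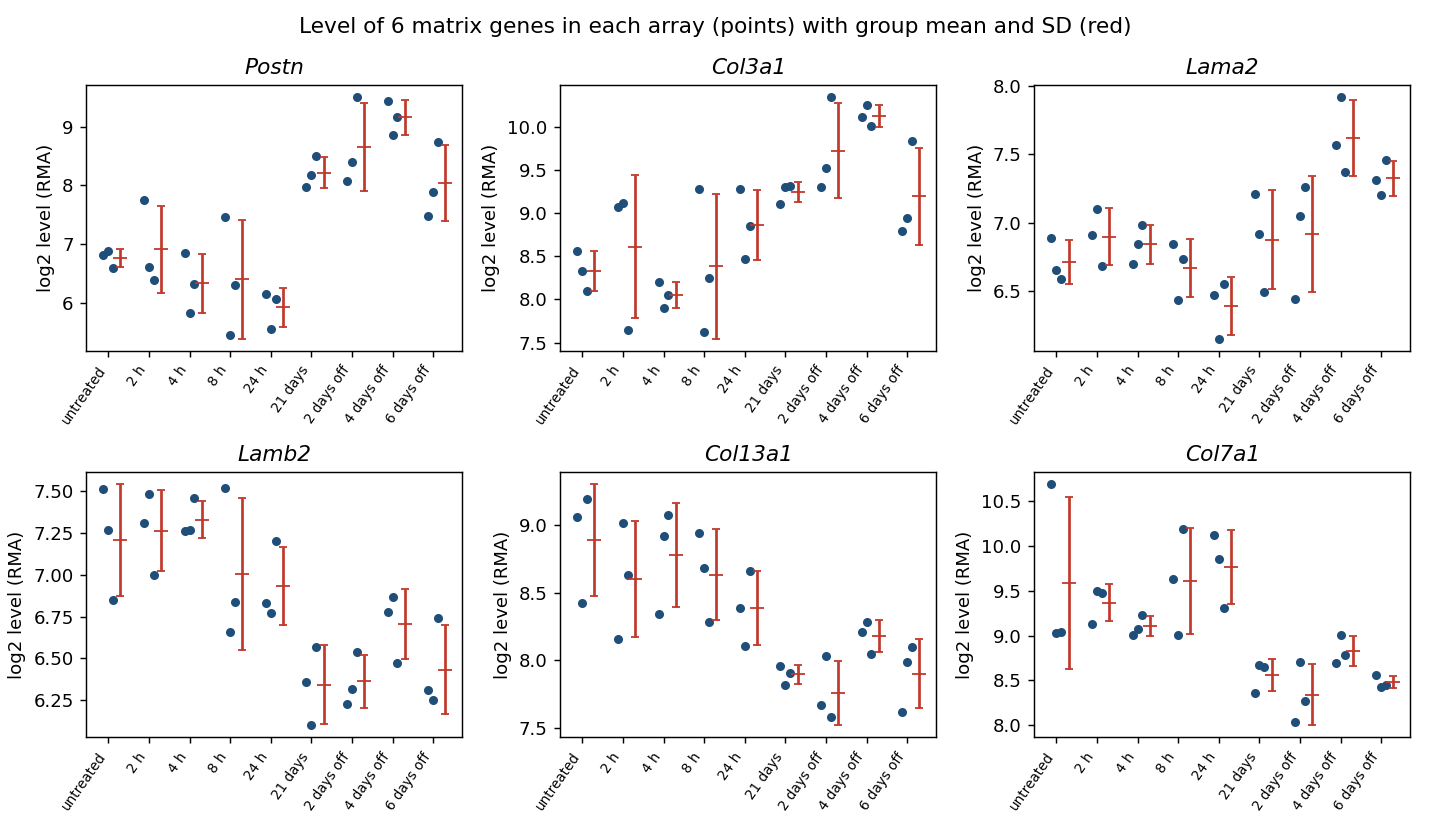
Log2 RMA level (vertical axis) of 6 matrix genes in the 9 groups (horizontal axis). Blue points are single arrays and the red bars give the group mean and SD over 3 arrays. Postn, Col3a1 and Lama2 had their highest group means at 4 days off. Lamb2, Col13a1 and Col7a1 were lower from 21 days on, with 1 untreated Col7a1 array at 10.69.

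Of the basement membrane genes, 3 of 17 were called by the F test (Lama2, Lama5 and Lamb2), against 41.8% of all genes. Lamb2, the laminin β2 chain of mature vessel and synaptic laminins, read 7.51, 7.27 and 6.85 in untreated islets, 6.36, 6.10 and 6.57 at 21 days and 6.23, 6.32 and 6.54 at 2 days off. It was 1.82-fold lower at 21 days (adjusted p = 0.00757) and 1.80-fold lower at 2 days off (adjusted p = 0.00587), in every alternative tried. It read 6.78, 6.87 and 6.47 at 4 days off and was not called. At 6 days off it was 1.71-fold lower (adjusted p = 0.0176), a call that 4 of 6 fits with an array left out lost.

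Lama2 went the other way. Its untreated arrays read 6.89, 6.65 and 6.59, and at 4 days off it was 1.88-fold higher (0.91 ± 0.20, adjusted p = 0.00248) in every alternative. At 6 days off it read 7.31, 7.20 and 7.46, 1.53-fold above untreated (adjusted p = 0.0485), and leaving out any 1 of the 6 arrays ended that call. Lama5, the α5 chain of vessel laminins, was 1.32-fold lower at 21 days (7.86, 7.89 and 7.82 against 8.46, 8.32 and 8.00, adjusted p = 0.0282). That call was lost in 5 of 6 fits with an array left out.

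The type IV collagen chains Col4a1 and Col4a2, the main collagens of basement membranes, did not differ by the F test (adjusted p = 0.396 and 0.326). Col4a1 read 10.53, 9.66 and 10.22 in untreated islets and 10.43, 10.41 and 10.46 at 4 days off. Lamc1, the γ1 chain shared by most laminins, was 1.54-fold higher at 21 days than at 24 h (adjusted p = 0.0186). Col15a1 and Col18a1, collagens of vessel basement membranes, were 1.67-fold and 1.46-fold higher over that step. Fits that left out 1 of the 6 arrays lost the call in 3 of 6 for Lamc1, 5 of 6 for Col15a1 and 4 of 6 for Col18a1. Lamb1 (adjusted p = 0.262) and Nid1 (adjusted p = 0.244, a dim probe set near 4) did not differ by the F test.

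The mean of 20 endothelial markers was 7.60 ± 0.18 in untreated islets, 7.39 ± 0.16 at 8 h and 7.35 ± 0.02 at 24 h. At 8 h and 24 h 0 of the 20 were called, against 1.91% and 1.58% of all genes. Lamb2 and Lama5 also read lower at 24 h, with log2 changes of -0.28 and -0.27, and were not called. The endothelial mean was 7.35 ± 0.05 at 21 days, 7.19 ± 0.08 at 2 days off and 7.36 ± 0.07 at 4 days off. Against untreated, 3 of the 20 were lower at 21 days, against 8.46% of all genes, and 1 was higher, against 7.95%. The median change was -0.08, against 0.03 for all genes. At 2 days off 6 were lower, against 11.5% of all genes, and 0 higher, against 11.7%. The lower ones included the receptor Tie1 (3.89-fold) and the surface glycoprotein Emcn (2.92-fold). The part of endothelial cells in the Lamb2 and Lama5 values was not tested.

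Of the glycoproteins and proteoglycans, 2 of 9 differed by the F test, Postn and lumican, against 41.8% of all genes. Lum, a small proteoglycan of collagen fibrils, read 5.47, 5.37 and 5.20 in untreated islets and 5.55, 6.28 and 6.13 at 4 days off, 1.56-fold higher (adjusted p = 0.0161) a call that 3 of 6 fits with an array left out lost. All 9 had a change above 0 at 21 days, with a median of 0.40 against 0.03 for all genes, and only Postn was called. Fn1 (fibronectin), Sparc, Bgn (biglycan), Eln (elastin) and Lox (a collagen crosslinking enzyme) did not differ by the F test, with adjusted p of 0.418, 0.622, 0.318, 0.246 and 0.0516. Fn1 read 8.24, 7.83 and 7.53 in untreated islets and 9.51, 8.59 and 8.00 at 2 h, so the groups overlapped. Vim, the intermediate filament of mesenchymal cells, read between 5.78 and 6.12 in untreated islets and had an F test adjusted p of 0.194.

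Of the matrix metalloproteinases, 12 of 13 lay below the brightest bacterial control. Mmp12 and Mmp13, 2 of 13, differed by the F test, against 41.8% of all genes. Mmp12, the elastase of macrophages, read 6.71, 6.36 and 6.73 in untreated islets and 6.90, 7.76 and 6.90 at 21 days, so 1 array set most of its 1.5-fold rise (adjusted p = 0.0463). Without that array the adjusted p was 0.312, and each untreated array left out ended the call too. The mean of 24 macrophage markers was 7.04 ± 0.09 in untreated islets and 7.03 ± 0.13 at 21 days. The part of macrophages in the Mmp12 value was not tested. Mmp14, the membrane-bound activator of Mmp2 and the only Mmp above the control, fell 1.27-fold at 4 days off (7.27, 7.34 and 7.48 against 7.86, 7.76 and 7.51, adjusted p = 0.0328). Mmp13 fell 1.35-fold at 6 days off at a level near 4. Both calls were lost in 4 of 6 fits with an array left out. The gelatinases Mmp2 and Mmp9 had F test adjusted p of 0.131 and 0.343.

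Among the inhibitors only Timp3, which binds to matrix, differed by the F test (adjusted p = 0.0127), and it was the 1 such gene called in no single comparison. It read 10.77, 10.33 and 10.58 in untreated islets and averaged 10.16 ± 0.20 (SD) at 24 h. The 21 day arrays read 10.45, 9.68 and 10.09, all but 1 below the untreated ones, and those 4 days off read 10.97, 10.94 and 10.48. The rise from 21 days to 4 days off was 0.72 ± 0.24 with an adjusted p of 0.0707. Timp1 and Timp2 had F test adjusted p of 0.103 and 0.190.

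Of 17 Adam and Adamts genes, 3 (Adam5, Adam9 and Adam28) differed by the F test, against 41.8% of all genes. Adam28, a protease known from lymphocytes, fell in 4 comparisons and read 9.58, 9.95 and 9.43 in untreated islets against 9.09, 9.09 and 9.11 at 4 days off (1.47-fold lower, adjusted p = 0.00115, in every alternative). Adam9, a widely expressed sheddase, read 5.47, 5.71 and 6.10 in untreated islets and 6.71, 6.60 and 6.34 at 4 days off, 1.73-fold higher (adjusted p = 0.0208), a call that 4 of 6 fits with an array left out lost. Adam5 and Adam28, like Mmp12, Adamts1 and Col1a2, were measured by probe sets of the _r class, which Affymetrix chose under relaxed rules. A second Adam5 probe set was dim, with a mean of 3.85 near the lowest bacterial control (3.58), and bears little on the change. Adam10 and Adam17, the main sheddases, had F test adjusted p of 0.474 and 0.0905.

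Several members that rose late also varied together from array to array. Over the 27 arrays the 36 pairs among Postn, Col3a1, Col5a2, Col6a1, Lum, Lama2, Adam9, Col1a1 and Col5a1 had correlations of 0.18 to 0.91 with a median of 0.69. After group means were removed they ranged from -0.37 to 0.88 with a median of 0.48, and the highest were Col3a1 with Col6a1 (0.88) and Postn with Col3a1 (0.83). Postn with Col6a1 went from 0.88 to 0.72. The 9 genes were picked after their changes were known, and all pairs share the same arrays, so these are descriptions.

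Mesenchymal markers stand beside these genes as follows. The mean of 27 mesenchymal and pericyte markers was 7.32 ± 0.22 in untreated islets and 7.16 ± 0.09 at 24 h. It was 7.44 ± 0.09 in the 21 day group and 7.38 ± 0.03 after 4 days off. Over the step from 24 h to 21 days 6 of 27 rose, against 11.4% of all genes, and 0 fell, against 10.4%. Those that rose included the contractile genes Acta2 (2.78-fold, arrays overlapping) and Tagln (2.57-fold) and the pericyte receptor Notch3 (2.02-fold). Between untreated and 4 days off 2 rose, against 14.1% of all genes, the pericyte receptor Pdgfrb (1.88-fold) and Notch3 (1.69-fold). In the same comparison 2 fell, against 12.3%, among them the glycoprotein Fbln1. Only 9 of the 27 changes there were above 0, with a median of -0.08 against -0.06 for all genes. From 21 days to 4 days off 6 of the 27 were above 0, with a median of -0.19 against -0.06. The part of mesenchymal cells in the Postn and Col3a1 values was not tested.

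Genes that act with the members were taken from wider lists. For their counts, the share of all genes called higher and lower was 7.95% and 8.46% at 21 days against untreated, 14.1% and 12.3% at 4 days off against untreated, and 4.52% and 2.39% at 4 days off against 21 days. Of 41 other matrix glycoproteins and proteoglycans, 4 rose and 1 fell at 21 days against untreated. The list's median change was 0.08, against 0.03 for all genes. The proteoglycan versican (Vcan) rose 1.65-fold, and vitronectin (Vtn) fell 1.65-fold. From 21 days to 4 days off 3 of the 41 rose and 2 fell, and the basement membrane linker Nid2 rose 4.33-fold (adjusted p = 0.0124). Against untreated, 3 rose and 4 fell at 4 days off, with thrombospondin 3 (Thbs3) up 2.57-fold (adjusted p = 0.00432). Smoc1, a calcium-binding matrix protein, was 1.95-fold higher already at 4 h (adjusted p = 0.0131).

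Of 14 genes for collagen processing and crosslinking, the procollagen protease Bmp1 was the only one called at 21 days, 2.02-fold lower than untreated (adjusted p = 0.00186), and at 4 days off it was 2.00-fold above the 21 day level (adjusted p = 0.0124). Colgalt1, which adds galactose to collagen, rose 1.69-fold at 4 h (adjusted p = 0.0344) and 1.84-fold at 8 h (adjusted p = 0.00928), when no member was called. Among 16 cathepsins and cystatins, 2 rose and 2 fell at 21 days. The lysosomal protease Ctsl rose 1.87-fold and its inhibitor Cstb 2.65-fold, and cathepsin Z (Ctsz) fell 2.00-fold.

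Of 15 partner metalloproteases and regulators, 3 fell and 0 rose at 21 days: the meprin chain Mep1b (2.18-fold), the endothelin-converting enzyme Ece1 (2.11-fold) and the testican Spock2 (1.96-fold). Of 9 matrix receptors other than integrins, 1 rose and 1 fell at 21 days. The thrombospondin receptor Cd47 was 1.81-fold higher at 21 days and 3.15-fold higher at 4 days off (adjusted p = 2.44e-05). Of 24 genes of TGF-beta and CCN signalling, which drives matrix synthesis in many tissues, 0 rose and 2 fell at 21 days. Off the drug for 4 days 1 rose against untreated, the matricellular Ccn2 (2.49-fold, adjusted p = 0.00969), and 5 fell, including the receptor Acvrl1 (1.44-fold). Of 10 plasminogen system genes and serpins, 1 rose at 4 days off against untreated, the C1 inhibitor Serping1 (1.71-fold).

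In 26 members more than 1 probe set was present, and they did not always agree. For Col3a1 a second probe set, 161984_f_at, was called at 21 days (1.60 ± 0.49, 3.04-fold, adjusted p = 0.0326), where the brightest one missed the threshold. At 4 days off 161984_f_at was 3.55-fold above untreated. At 21 days it was 5.64-fold above its 24 h level, which was 4.99 against 5.89 in untreated islets. The brightest probe set read 8.87 at 24 h against 8.33 untreated, the opposite direction. It was 1.3-fold higher at 21 days than at 24 h (adjusted p = 0.522). For Col1a2, the second chain of type I collagen, the brightest probe set did not differ (F test adjusted p = 0.27), whereas 101130_at rose from 7.82 ± 0.40 in untreated islets to 8.77 ± 0.54 at 2 days off (F test adjusted p = 0.0328). For Col6a1, 162459_f_at was 1.85-fold higher at 21 days and 2.28-fold higher at 4 days off. Both Col13a1 probe sets fell at 21 days, the second by 1.54-fold (adjusted p = 0.000766).

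Probe sets of other genes differed in call, and in some genes, Col18a1 among them, also in direction. For Col18a1, at 4 days off against untreated, 101880_at fell 1.32-fold and 101881_g_at rose 1.96-fold, while the brightest probe set was not called. Lamb3, the β3 chain of epithelial laminin, fell 1.34-fold at 4 days off by 92759_at, and Eln fell 1.51-fold there by 92207_at. Their brightest probe sets also read lower there, 6.39 against 6.69 for Lamb3 and 8.26 against 8.6 for Eln, but were not called. For Timp1 the brightest probe set was not called, and 162107_r_at, a dim one near 4, rose 1.66-fold at 21 days. Which probe set reads each transcript best was not tested.

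**Figure D4:**
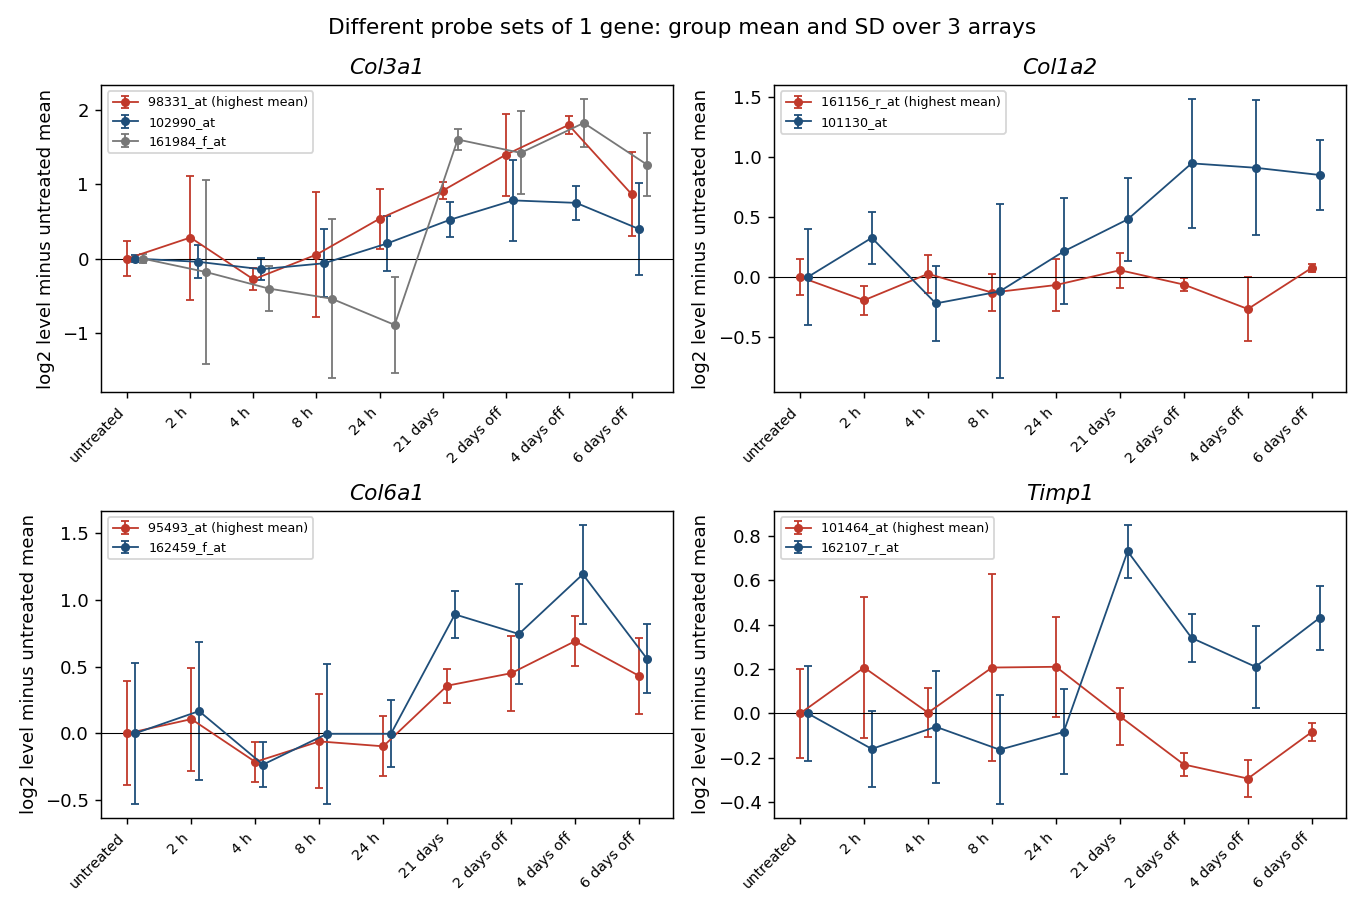
Probe sets of Col3a1, Col1a2, Col6a1 and Timp1 in the 9 groups (horizontal axis), as the log2 level minus that probe set's untreated mean (vertical axis). Points are group means and bars the SD over 3 arrays, with the probe set used for the gene in red. The Col3a1 and Col6a1 probe sets rose together from 21 days on, whereas the second Col1a2 probe set rose and the red one did not, and those of Timp1 diverged.

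Array quality was even, with medians of 6.91 to 7.01 and correlations within groups of 0.957 to 0.992 across probe sets. The mean of 10 beta cell markers was 9.44 to 10.1 in the 9 group means, which fits the islet label, and acinar RNA varied between and within groups. In 5 arrays the mean of 37 leukocyte markers lay over 0.5 above the mean of all arrays: the first and the third at 2 h, the third at 8 h, the second at 2 days off and the first at 6 days off. Without them 1 member was called at 6 days off against untreated in place of 6, and 1 in place of 4 at 4 days off against 21 days. The matching shares of all genes were not counted.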

How the data were processed

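Islets were captured by laser and their RNA was amplified linearly in 2 rounds before hybridisation to 1-colour Affymetrix arrays, per the labels. The deposited table holds log2 values that the authors made with RMA, per the submitters' processing notes (no version is stated). RMA sets probe intensities to a common distribution, so a shift shared by most genes would not be seen. The number of arrays limits the precision.

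From these values, limma 3.58.1 in R 4.3.3 (lmFit and eBayes, 9 group means, 18 residual degrees of freedom) tested 12422 probe sets after 66 control probe sets were left out, with Benjamini-Hochberg adjustment over all of them, two-sided, threshold 0.05. With 3 arrays against 3 an exact permutation test cannot go below 0.1, so none is given. The calculation was tested on simulated data. Of the probe sets, 10833 had 1 platform symbol, 396 several and 1193 none, and only the first were named. Entrez identifiers of 10817 were found in the GRCm38.p6 table.

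The text names the called members of each comparison, up to 15 by size, up to 20 members by the F test, a panel named whether called or not, and up to 3 called genes per companion or marker list. Dcn, Adam8 and the probe set examples were singled out after their values were seen. The members, lists and tests were chosen with earlier results of these data known. Alternatives were normalization, a low-level filter, probe set means, array weights, marker covariates, a replicate block, a fit of the 6 arrays compared, the leukocyte-rich arrays left out, and each array left out in turn.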

Additional observations from a re-analysis of the deposited data

Results flagged for a closer look

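Of the members called between 24 h and 21 days, 8 lay on opposite sides of the untreated mean at those times. The difference, 21 days minus 24 h in log2 units, was 2.28 for Postn, 0.66 for Col1a1, 0.62 for Col5a1, 0.62 for Lamc1, 0.55 for Col18a1, 0.48 for Col19a1, 0.31 for Col11a1 and -1.20 for Col7a1. Each was tested as 21 days against 24 h by limma, and none kept its call with the acinar and leukocyte marker means as covariates. That fit can hardly separate this step from acinar RNA.

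Probe sets other than the brightest were higher at 21 days than in untreated islets for 5 members whose brightest probe set was not called there. The log2 changes were 1.60 for Col3a1 (161984_f_at), 0.89 for Col6a1 (162459_f_at), 0.73 for Timp1 (162107_r_at), 0.51 for Timp2 (161515_i_at) and 0.31 for Mmp9 (162369_f_at). The Timp1 and Mmp9 probe sets read near 4, a level that bacterial controls also reach.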

How the results depend on the processing

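Of 53 called results of single members, 14 kept their call in every alternative and with every array left out. With array weights 50 were kept, with a replicate block 50, with probe set means 49, with median centring 49, with a second quantile normalization 48, without the leukocyte-rich arrays 40, in a fit of the 6 arrays compared 29 and with marker covariates 23. The low-level filter kept all 44 it could test. One direction turned: Col7a1, 21 days against 24 h, was 0.26 with marker covariates, and the cause was not tested. Under the alternatives the matching shares of all genes were counted only for the F test. The count of members called moved by over 1.5 times in the following cases. With array weights it was 1 at 24 h, 24 for 21 days against 24 h, 3, 26 and 5 at 2, 4 and 6 days off against 21 days, and 48 by the F test. With marker covariates it was 6 for 21 days against untreated, 0 for 21 days against 24 h, 0 for 6 days off against untreated and 9 by the F test. In a fit of the 6 arrays compared it was 6 at 21 days, 5 at 2 days off and 0 at 6 days off, all against untreated. For 4 days off against 21 days it was 2 with the low-level filter, 7 with probe set means and 1 without the leukocyte-rich arrays, and for 6 days off against untreated it was 1 without those arrays. The F test share of members stayed below that of all genes in every alternative (57.1% against 67.3% with array weights, 10.7% against 24.4% with covariates). With 1 array left out the counts ranged from 0 to 1 at 2 h, 6 to 7 at 21 days, 5 to 14 for 21 days against 24 h, 0 to 6 for 4 days off against 21 days, 6 to 11, 6 to 14 and 2 to 6 at 2, 4 and 6 days off against untreated, and 16 to 26 by the F test. Same-numbered arrays did not deviate together: in no comparison were all 3 correlations over 0.1. The replicate block ended 3 of the 53 calls, Col11a1 and Lamb2 for 21 days against 24 h and Lama2 for 6 days off against untreated.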
